A study of Mus musculus with 2 samples.

Results

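Fibroblast growth factors (Fgfs) are secreted proteins that bind receptor tyrosine kinases on the cell surface, and the bound receptors switch on the RAS–ERK kinase cascade. In the embryonic telencephalon this signalling is known for keeping radial glia dividing and for setting out the cortical areas. Cells that receive the signal switch on genes that carry it forward, such as the ETS transcription factors Etv1, Etv4 and Etv5, and genes that damp it, such as the Sprouty (Spry) and Spred proteins and the ERK phosphatase Dusp6.

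The 37 genes described here were taken by name from the 21896 genes of the deposited values: every Fgf gene with a number (22 genes), the receptors Fgfr1 to Fgfr4, the Spry and Spred genes, Dusp6, and Etv1, Etv4 and Etv5. Their levels were measured by RNA-seq in the VZ–SVZ, the ventricular and subventricular zones where cortical progenitors divide, dissected from C57/BL6 mouse embryos at E13.5. The control was 1 Rcor2fl/fl library, from embryos with both copies of Rcor2 flanked by LoxP sites. It was compared with 1 Rcor2cko library, in which NesCre, a Cre recombinase under the Nestin promoter, cuts the floxed exons out in the neural lineage. Both genotypes came from parents carrying Rcor2fl/+ and NesCre, and neither the number of embryos in each library nor whether the Rcor2fl/fl embryos carried NesCre is given in the sources used here.

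Levels are given as FPKM, fragments scaled for transcript length and for the size of the library, so that genes of different length can be set side by side. A change is log2 of the FPKM + 0.1 in Rcor2cko divided by the FPKM + 0.1 in Rcor2fl/fl, which understates changes near 0 FPKM. With 1 library for each genotype no difference below has a replicate check, and every comparison is between these 2 libraries. Members with 1 transcript of at least 1000 nt also allowed the number of fragments to be recovered, from which a 95% interval was computed by the exact method of Clopper and Pearson, on the log2 scale. That interval covers counting error only. The scaling totals were 18841070 fragments for Rcor2fl/fl and 25481460 for Rcor2cko, at which 3 fragments on a transcript of 2000 nt correspond to 0.0882 and 0.0654 FPKM.

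The 2 libraries differed in ways other than the Fgf pathway. Rcor2 itself was at 90.6 FPKM in Rcor2fl/fl and 55.7 FPKM in Rcor2cko over the whole gene, which includes exons outside the LoxP sites. Xist was at 177 and 0.109 FPKM and the Y-linked Eif2s3y at a listed 0 and 19.8 FPKM, so that the sex of the embryos cannot be told apart from the genotype. The defining markers of cortical radial glia (8 of 8), intermediate progenitors (3 of 3) and cortical neurons (5 of 5) were all above 1 FPKM. None of these 16 differed by more than 1.5-fold, beside 3.79% of all genes compared that were higher and 1.76% lower. Within that limit, log2 changes reached 0.53 for Fabp7 and -0.53 for Hes1, both radial glia markers. In Rcor2fl/fl the neuron markers summed to 1361 FPKM and the radial glia markers to 873 FPKM, so the levels below are not of progenitors alone. All 8 ventral telencephalic markers were more than 1.5-fold higher in Rcor2cko, with a summed level of 12.5 FPKM in Rcor2fl/fl and 47.3 FPKM in Rcor2cko. Of these, Dlx1, Dlx2, Dlx5 and Gad2 reached 1 FPKM in both libraries. Dlx6, Gsx2, Isl1 and Six3 reached it in Rcor2cko alone, and so were compared through the library in which they were higher. Gsx2, Isl1 and Six3 were listed at 0 in Rcor2fl/fl. Cajal-Retzius and hem markers were lower in 5 of the 5 tested out of 6, from a sum of 58.5 to 25.9 FPKM. Of these 5, Lhx5 reached 1 FPKM in Rcor2fl/fl alone, the library in which it was higher. Wnt3a was listed at 0 in Rcor2cko. Choroid plexus markers were higher in 3 of the 3 tested out of 6, from a sum of 1.04 to 62.9 FPKM. These 3 reached 1 FPKM in Rcor2cko alone, and so were compared through the library in which they were higher. Ttr was listed at 0 in Rcor2fl/fl and gave 57.8 FPKM of the sum in Rcor2cko. Meningeal markers (6 of 6) stayed under 1 FPKM, with sums of 1.94 and 2.23 FPKM, endothelial markers summed to 25.9 and 27.7 FPKM with none of 5 past 1.5-fold, microglial markers to 12.7 and 17.7 FPKM with 2 of 5 higher, and blood markers to 203 and 141 FPKM with 1 of 3 tested lower. The part of these tissues in the results below was not tested, and in dissected tissue fewer cells of a type and less RNA per cell cannot be told apart.

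Of the 37 genes, 18 reached 1 FPKM in at least 1 library and were compared, 19 were under 1 FPKM in both, and 6 of those 19 were listed at 0 in both. One member of the 18, Etv4, was more than 1.5-fold lower in Rcor2cko, and 0 were more than 1.5-fold higher. Over all 11777 genes at 1 FPKM or more, 1.76% were lower and 3.79% higher by that criterion. The members' median log2 change was -0.10, with a range from -1.08 to 0.50, against a median of -0.03 over all genes. Log2 changes were below 0 in 11 of the 18 members (61.1%) and in 57.6% of all genes.

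**Figure D1:**
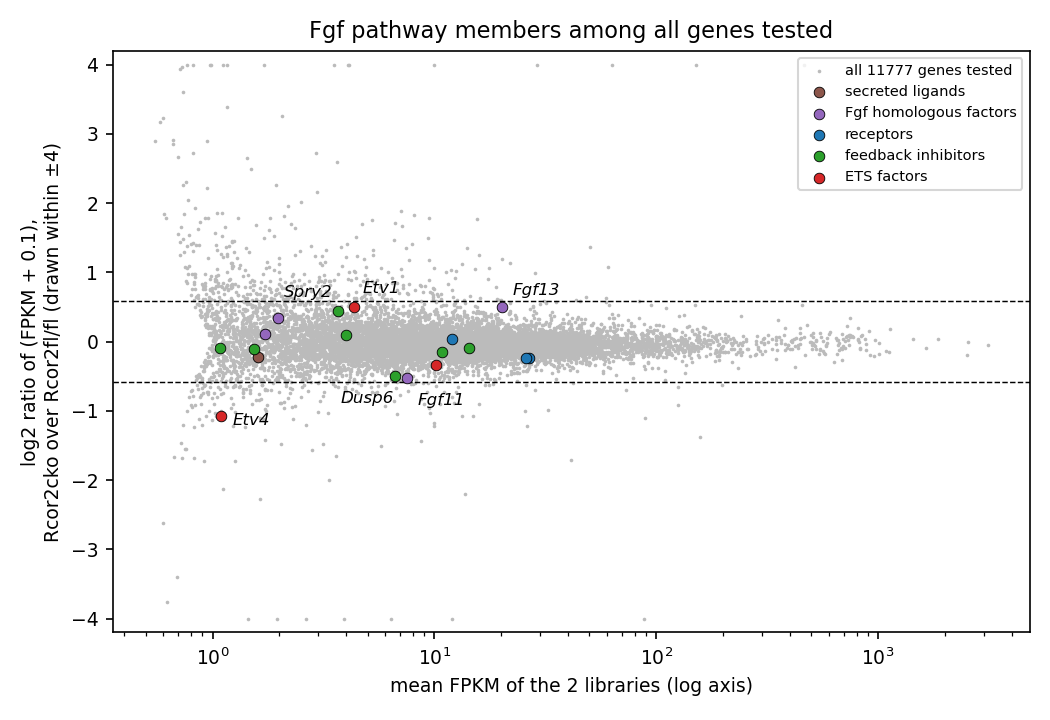
Change in log2(FPKM + 0.1) from Rcor2fl/fl to Rcor2cko (vertical axis, values past 4 in either direction drawn at the edge), against mean FPKM of the 2 libraries (log axis) for all 11777 genes tested (grey) and the 18 members (coloured by role); the dashed lines mark a 1.5-fold difference. Etv4 is the one member outside the dashed lines, and the other 17 lie between them.

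The files give a 95% FPKM interval with each value. For Fgfr1, Fgfr2, Fgfr3, Etv1, Fgf12 and Fgf14 the Rcor2fl/fl file lists transcripts, and the intervals given here for that library were combined from theirs. The intervals of the 2 libraries were apart for 1 member that was lower, Etv4, against 1.21% of all genes, and for 1 member that was higher, Fgf13, against 2.26% of all genes. Among the 11 members compared whose fragments were recovered, the exact interval lay below 0 for Etv4, Dusp6 and Etv5 and above 0 for Spry2 and Fgf13. Over the 8460 genes compared with recovered fragments, it lay below 0 in 24.0% and above 0 in 13.7%, so an interval away from 0 was common in this pair of libraries.

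For the 3 of these 5 genes that have a RefSeq window free of annotated exons at the start of the measured transcript, the 250 bases upstream of that start are shown, to place the measured transcripts on the genome. The sequences are from RefSeq (GRCm38.p6). Each matched mm9, the build of the deposited values, exactly and at 1 place, and mm9 positions are given. Capitals mark GGAA on either strand (read as GGAA or TTCC), the core of the sites that ETS factors bind. Dusp6 is at chr10:98725615-98725864 on the plus strand, Spry2 at chr14:106296037-106296286 on the minus strand and Fgf13 at chrX:56387614-56387863 on the minus strand.
Dusp6: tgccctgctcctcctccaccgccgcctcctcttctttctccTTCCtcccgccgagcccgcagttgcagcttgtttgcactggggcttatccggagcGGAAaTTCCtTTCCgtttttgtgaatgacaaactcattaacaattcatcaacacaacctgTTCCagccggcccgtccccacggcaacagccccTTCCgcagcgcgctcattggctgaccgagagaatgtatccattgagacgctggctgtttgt
Spry2: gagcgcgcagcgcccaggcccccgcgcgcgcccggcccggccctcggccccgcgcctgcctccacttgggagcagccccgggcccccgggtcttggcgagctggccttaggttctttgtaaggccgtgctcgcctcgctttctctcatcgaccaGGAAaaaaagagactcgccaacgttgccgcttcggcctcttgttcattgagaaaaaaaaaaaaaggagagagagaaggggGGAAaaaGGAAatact
Fgf13: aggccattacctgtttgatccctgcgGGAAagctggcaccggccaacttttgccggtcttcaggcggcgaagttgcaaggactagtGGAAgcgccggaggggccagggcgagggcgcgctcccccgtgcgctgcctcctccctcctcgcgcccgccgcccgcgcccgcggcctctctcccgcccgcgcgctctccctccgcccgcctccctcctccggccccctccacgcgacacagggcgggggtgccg

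The core occurred 6 times upstream of Dusp6, 3 times upstream of Spry2 and 2 times upstream of Fgf13. It was present in 93.4% of the 32851 RefSeq windows of this length, with a median of 3 occurrences. The longer form CCGGAA (or TTCCGG), present in 12.0% of all windows, was in none of these 3, and neither was CCGGAAGT (or ACTTCCGG), present in 2.88%. These are matches of letters only.

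Secreted ligands were scarce in the dissected VZ–SVZ. The 15 secreted, locally acting Fgf genes summed to 2.47 FPKM in Rcor2fl/fl and 2.51 FPKM in Rcor2cko. Most of this was Fgf18, the one ligand above 1 FPKM, at 1.73 and 1.46 FPKM from 29 and 33 fragments. Its log2 change was -0.22 with an exact interval from -1.01 to 0.52, so that no difference was detectable at this depth. Fgf18 belongs to a subfamily with Fgf8 and Fgf17, the ligands of the rostral patterning centre that set the front-to-back axis of the cortex. Fgf17 was at 0.142 and 0.185 FPKM, from 4 and 7 fragments, and all 4 transcripts of Fgf8 and its gene value were listed at 0.

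Among the remaining ligands the values rested on few fragments. Fgf10, which acts in radial glia at the onset of neurogenesis, was at 0.267 and 0.171 FPKM (22 and 19 fragments), and Fgf9 at 0.135 and 0.0997 FPKM (10 and 10 fragments). In the annotation, exons of Fgf10 share 123 bases with the antisense model Gm16263. Fgf7 was at 0.0643 FPKM from 3 fragments and 0.238 FPKM from 15 fragments, with an exact interval of the log2 ratio from 0.06 to 4.32. Its deposited intervals, which reach 0 in both libraries, overlapped. Fgf5 was at 0.0690 and 0.119 FPKM (3 and 7 fragments) and Fgf3 at 0.0531 and 0.0790 FPKM (1 and 2 fragments). Fgf1 had 1 fragment in Rcor2fl/fl alone and Fgf16 had 1 in Rcor2cko alone.

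Fgf4, Fgf6 and Fgf20 had 0 fragments in both libraries. Taking 3 fragments as the limit that a count of 0 allows, levels up to 0.0561, 0.153 and 0.124 FPKM in Rcor2fl/fl and 0.0416, 0.114 and 0.0923 FPKM in Rcor2cko remain possible. In the annotation, exons of Fgf20 share 202 bases with Efha2 on the opposite strand. Fgf2, a mitogen of cortical progenitors, was also listed at 0 in both libraries. The Fgf2 transcript behind that value is 695 nt long. In the GENCODE annotation, exons of Fgf2 share 242 bases with the antisense gene Nudt6, which was at 1.15 and 0.631 FPKM. An overlap of the measured transcript itself with Nudt6 was not examined. Whether strand was used in assigning reads is not given in the sources used here. Fgf22, with a transcript of 489 nt, was listed at 0 in Rcor2fl/fl and at 0.136 FPKM in Rcor2cko, where its deposited interval runs from 0 to 0.430 FPKM.

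Of the endocrine subfamily, Fgf15 was at 0.0658 FPKM in Rcor2fl/fl, from 2 fragments, and at 0.342 FPKM in Rcor2cko, from 14 fragments. Fgf15 is made by forebrain progenitors in the embryo and by the gut in the adult, where it holds back bile acid synthesis. The exact interval of its log2 ratio ran from 0.25 to 5.55, while the deposited intervals, 0 to 0.152 and 0.145 to 0.539 FPKM, overlapped. The gene stayed under 1 FPKM in both libraries and was not counted as higher. The ventral telencephalic markers, whose sums are given above, were higher in the same library, and their part in this value was not tested. Exons of Fgf15 share 478 bases with an antisense gene model in the annotation, Gm17685. Fgf23 was at 0.0655 and 0.0730 FPKM (2 and 3 fragments), and Fgf21 was listed at 0. Fragments were not recovered for Fgf2, Fgf8 and Fgf21, so that no limit is given for them.

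Fgf11 and Fgf13 were the abundant Fgf genes, the only ones above 5 FPKM. Both belong to the Fgf homologous factors, Fgf11 to Fgf14, of which Fgf12 and Fgf14 were near the level of Fgf18. The homologous factors are not secreted and do not act through Fgf receptors, but stay inside neurons, where they bind voltage-gated sodium channels. All 4 were above 1 FPKM, with a sum of 28.9 FPKM in Rcor2fl/fl and 33.8 FPKM in Rcor2cko. Fgf13, which also binds microtubules in migrating cortical neurons, was at 16.7 FPKM in Rcor2fl/fl (722 fragments) and 23.6 FPKM in Rcor2cko (1377 fragments). Fgf13 had a log2 change of 0.50 with an exact interval from 0.36 to 0.63. The deposited intervals, 14.0 to 19.3 and 20.2 to 27.0 FPKM, did not overlap, although the difference stayed within 1.5-fold.

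Fgf13 is X-linked, and the libraries differ in sex. The 411 X-linked genes compared had a median log2 change of 0.02, and the 11362 outside X, Y and mitochondrial DNA one of -0.03. Those 11362 include genes placed on unassembled contigs, such as Spry3. The deposited values hold 1 transcript of Fgf13, the one that starts downstream of the sequence above, while RefSeq windows exist for 4 starts of the gene. The cortical neuron markers summed to 1361 FPKM in Rcor2fl/fl and 1302 FPKM in Rcor2cko, with a median log2 change of -0.05. The ventral telencephalic markers, whose sums are given above, were higher in Rcor2cko. The part of sex and of these cell types in the Fgf13 value was not tested.

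Fgf11 had 8.88 and 6.17 FPKM and a log2 change of -0.52. Its transcript is 678 nt long, so that fragments were not recovered, and its deposited intervals, 5.82 to 11.9 and 3.84 to 8.50 FPKM, overlapped. Fgf12 was at 1.65 and 1.78 FPKM and Fgf14 at 1.74 and 2.22 FPKM, log2 changes of 0.11 and 0.34 with overlapping intervals. With the highest transcript in place of the sum they came to 0.89 and 0.72, past 1.5-fold. Fgf13 made up 57.6% of the summed level of the homologous factors in Rcor2fl/fl and 69.9% in Rcor2cko, and Fgf11 30.7% and 18.3%.

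**Figure D2:**
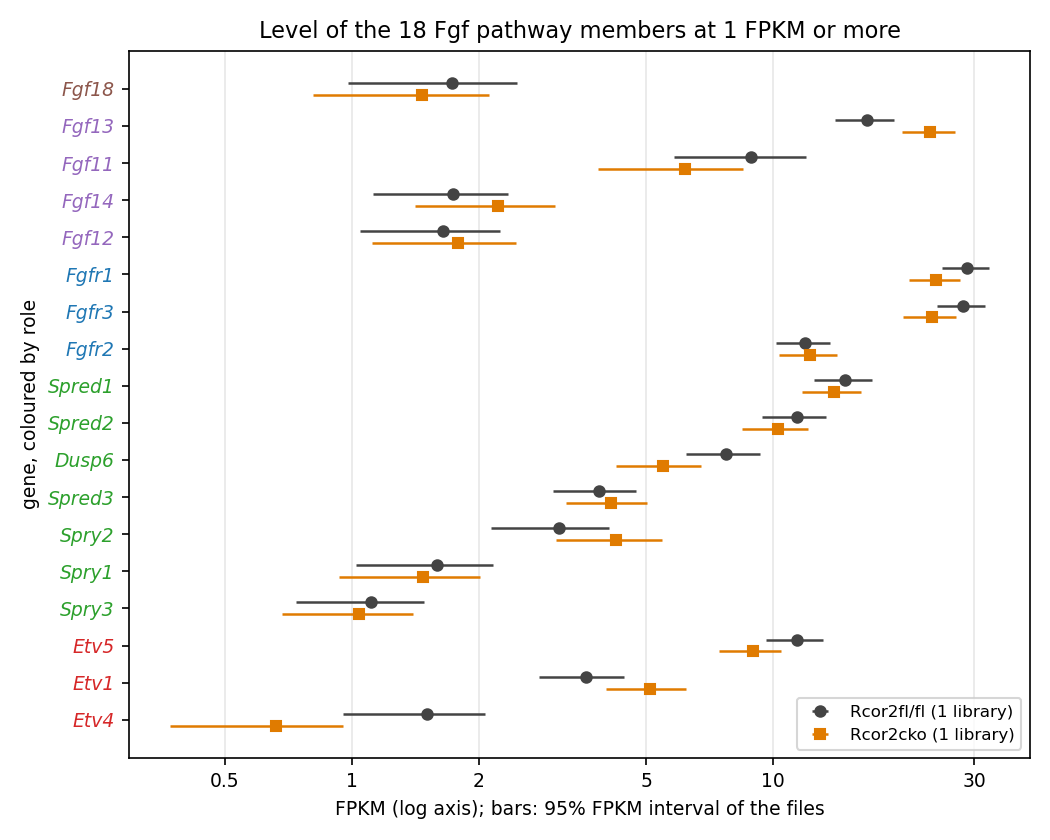
FPKM (log axis) of the 18 members in the Rcor2fl/fl library (circles) and the Rcor2cko library (squares), with their 95% FPKM intervals, grouped and coloured by role. Fgfr1 and Fgfr3 are above 20 FPKM in both libraries and Fgf13, at 23.6 FPKM, in Rcor2cko, where the intervals of these 3 overlap, and the intervals of the 2 libraries part only for Fgf13 and Etv4.

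Of the 4 receptors, 3 were compared and 0 differed by more than 1.5-fold, beside 3.79% of all genes higher and 1.76% lower. Fgfr1 was at 28.8 FPKM in Rcor2fl/fl (95% FPKM interval 25.2 to 32.5) and 24.3 FPKM in Rcor2cko (21.0 to 27.7), a log2 change of -0.24. Fgfr3, which is most abundant in caudal and lateral cortical progenitors, was at 28.2 FPKM (24.5 to 31.8) and 23.8 FPKM (20.4 to 27.2), also a log2 change of -0.24. Fgfr2 was at 11.9 FPKM (10.1 to 13.6) and 12.2 FPKM (10.3 to 14.1), a log2 change of 0.04. The intervals of each receptor overlapped between the libraries. These 3 genes have several transcripts, so that no exact interval was computed. With the highest transcript in place of their sum, which lowers Rcor2fl/fl alone, the log2 changes of Fgfr1 and Fgfr3 turned to 0.51 and 0.25. In the annotation, exons of Fgfr2 share 314 bases with Ctbp2 on the same strand (34.1 and 33.3 FPKM), and exons of Fgfr1 share 125 bases with the antisense model Gm16159. The annotated Fgfr2 model reaches chr7:140315033, far upstream of the measured transcripts, which start beside the RefSeq window at chr7:137410323-137410572 (mm9, minus strand). Whether the bases shared with Ctbp2 lie in the measured transcripts was not examined.

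In both libraries Fgfr1 and Fgfr3 could not be ranked against each other, since their intervals overlapped, and both lay above Fgfr2, whose interval was apart from theirs. Fgfr4 was far below, at 0.288 FPKM (16 fragments) and 0.320 FPKM (24 fragments). The receptors summed to 69.2 FPKM in Rcor2fl/fl and 60.7 FPKM in Rcor2cko, of which Fgfr1 gave 41.7% and 40.1%, Fgfr3 40.7% and 39.2%, Fgfr2 17.2% and 20.2%, and Fgfr4 0.416% and 0.527%.

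Of the 8 feedback inhibitors, 7 were compared and 0 passed 1.5-fold in either direction. The exact interval lay below 0 for 1 of the 7 and above 0 for 1, beside the 24.0% and 13.7% of all genes given above. Dusp6, the phosphatase that takes the activating phosphates off ERK (mm9 chr10:98725865-98730122, plus strand), was at 7.75 FPKM in Rcor2fl/fl (380 fragments) and 5.49 FPKM in Rcor2cko (363 fragments). Its log2 change was -0.49 with an exact interval from -0.71 to -0.29, while the deposited intervals, 6.21 to 9.29 and 4.24 to 6.73 FPKM, overlapped. Spry2, which blocks the cascade downstream of the receptors (mm9 chr14:106291166-106296036, minus strand), was at 3.11 FPKM (111 fragments) and 4.24 FPKM (204 fragments). Its log2 change was 0.44 with an exact interval from 0.10 to 0.79, and its deposited intervals overlapped as well.

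The other 5 inhibitors compared had exact intervals that included 0. Spred1, Spred2 and Spred3, membrane-bound relatives of the Sprouty proteins, were the most abundant inhibitors together, with a sum of 30.1 FPKM in Rcor2fl/fl and 28.3 FPKM in Rcor2cko. Spred1 was at 14.8 and 13.9 FPKM (-0.23 to 0.04). Spred2 was at 11.4 and 10.3 FPKM (-0.31 to 0.01) and Spred3 at 3.86 and 4.12 FPKM (-0.13 to 0.32). Spry1 was at 1.60 and 1.47 FPKM (-0.59 to 0.36) and Spry3, which the deposited values place on an unassembled contig of the X chromosome, at 1.11 and 1.04 FPKM (-0.52 to 0.33). Spry4 was at 0.290 and 0.259 FPKM, from 24 and 29 fragments, and was not compared. Spry2 made up 50.9% of the summed Spry FPKM in Rcor2fl/fl and 60.5% in Rcor2cko.

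Of the 3 ETS factors, Etv4 was lower in Rcor2cko by more than 1.5-fold, and Etv1 and Etv5 were within 1.5-fold. Etv4, also called Pea3, spans chr11:101631056-101646685 (mm9, minus strand), with 13 exons. It was at 1.51 FPKM in Rcor2fl/fl, from 61 fragments, and at 0.662 FPKM in Rcor2cko, from 36 fragments. On the FPKM + 0.1 scale this was 2.12-fold lower, a log2 change of -1.08, and the exact interval ran from -1.83 to -0.58. The deposited 95% FPKM intervals only just parted, with a lower bound of 0.9522 FPKM in Rcor2fl/fl and an upper bound of 0.9520 FPKM in Rcor2cko. Etv4 was at 1 FPKM or more in Rcor2fl/fl alone, so that it entered the comparison through the library in which it was higher.

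Etv5, also called Erm, was the most abundant of the ETS factors, at 11.4 FPKM in Rcor2fl/fl (777 fragments) and 8.94 FPKM in Rcor2cko (825 fragments). Its log2 change was -0.34 with an exact interval from -0.49 to -0.21, and the deposited intervals, 9.60 to 13.1 and 7.44 to 10.4 FPKM, overlapped. Etv1, also called Er81, which also marks deep-layer cortical neurons later in development, was at 3.60 and 5.11 FPKM. The log2 change of Etv1 was 0.49, and its intervals, 2.78 to 4.42 and 4.01 to 6.20 FPKM, overlapped. Etv1 made up 21.8% of the summed FPKM of the ETS factors in Rcor2fl/fl and 34.7% in Rcor2cko, while Etv4 made up 9.17% and 4.50%. The sum itself was 16.5 and 14.7 FPKM.

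**Figure D3:**
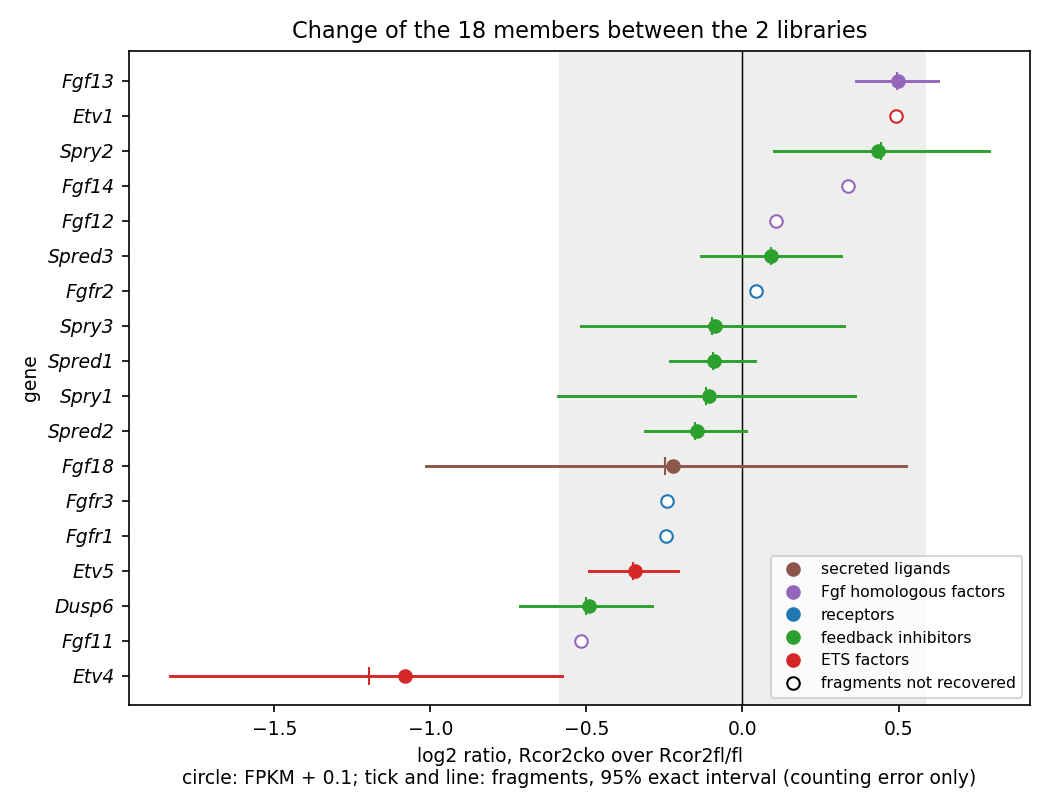
Log2 ratio, Rcor2cko over Rcor2fl/fl, of the 18 members (circles, on FPKM + 0.1), with the ratio of recovered fragments (ticks) and its 95% exact interval (lines, counting error only) for 11 of them; open circles are members without recovered fragments, and the grey band is 1.5-fold. Etv4 at -1.08 is the one circle outside the band, and Fgf13 at 0.50 is at the upper end.

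Other genes of the pathway were taken from 4 lists, to be read beside the 3.79% of all genes more than 1.5-fold higher and the 1.76% lower. Of the 4 lists, that of adaptors, ERK cascade genes and their regulators had the narrowest range of log2 changes, from -0.25 to 0.20. Its median was -0.01, and 0 of 24 genes passed 1.5-fold in either direction. Among the 8299 genes at 5 FPKM or more in both libraries, 61 were higher and 42 lower, so 0 of 24 does not set the list apart. The phospholipase gene Plcg1 was at 46.4 and 46.0 FPKM and the adaptor gene Grb2 at 43.8 and 39.3 FPKM, with log2 changes of -0.01 and -0.15.

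Of 13 receptor partners and further feedback genes, 8 were compared. Of these, 2 were more than 1.5-fold lower and 0 higher, beside 1.76% and 3.79% of all genes. Dusp4, a nuclear phosphatase of ERK and related kinases, was at 43.3 FPKM in Rcor2fl/fl and 21.7 FPKM in Rcor2cko. Its log2 change was -0.99 (exact interval -1.11 to -0.89). Flrt3, a membrane protein that binds Fgf receptors and promotes their signalling, had 20.4 and 13.2 FPKM and a log2 change of -0.63. Dusp7, a cytoplasmic ERK phosphatase like Dusp6, was at 4.08 and 3.81 FPKM with an interval from -0.36 to 0.15. Flrt2 was at 12.1 and 11.5 FPKM, Flrt1 at 6.69 and 7.81 FPKM, and Fgfbp3, a secreted carrier of Fgfs, at 6.42 and 9.54 FPKM. The log2 change of Fgfbp3 was 0.56 (exact interval 0.31 to 0.82).

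Among 21 heparan sulphate proteoglycans and the enzymes that modify their chains, which Fgfs need to bind their receptors, 19 were compared. The median log2 change was within 0.01 of 0. Of the 19, 1 gene was more than 1.5-fold higher and 0 were lower, beside 3.79% and 1.76% of all genes. Sulf1, which removes sulphate groups from the chains outside the cell, was at 0.269 FPKM in Rcor2fl/fl and 1.62 FPKM in Rcor2cko, a log2 change of 2.22. Like Etv4, it entered the comparison only through the library in which it was higher, here Rcor2cko. Gpc2 was at 107 and 109 FPKM, Gpc1 at 45.5 and 47.1 FPKM, Sdc3 at 38.2 and 36.3 FPKM and Hs6st2 at 28.4 and 22.2 FPKM.

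Immediate response genes, which ERK activity switches on within minutes, were compared for 5 of 7 listed, and 0 passed 1.5-fold. Their median log2 change was -0.22, against -0.03 over all genes. Changes were below 0 in 3 of the 5 and above 0 in 2. Fragments were recovered for 4 of the 5. The exact interval lay below 0 for 2 of these 4, beside 24.0% of all genes compared with recovered fragments. The 2 were Ier2 (8.99 and 6.86 FPKM, from -0.67 to -0.13) and Junb (2.01 and 1.34 FPKM, from -1.14 to -0.04). Myc was at 3.90 and 4.05 FPKM and Phlda1 at 3.26 and 2.78 FPKM.

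**Figure D4:**
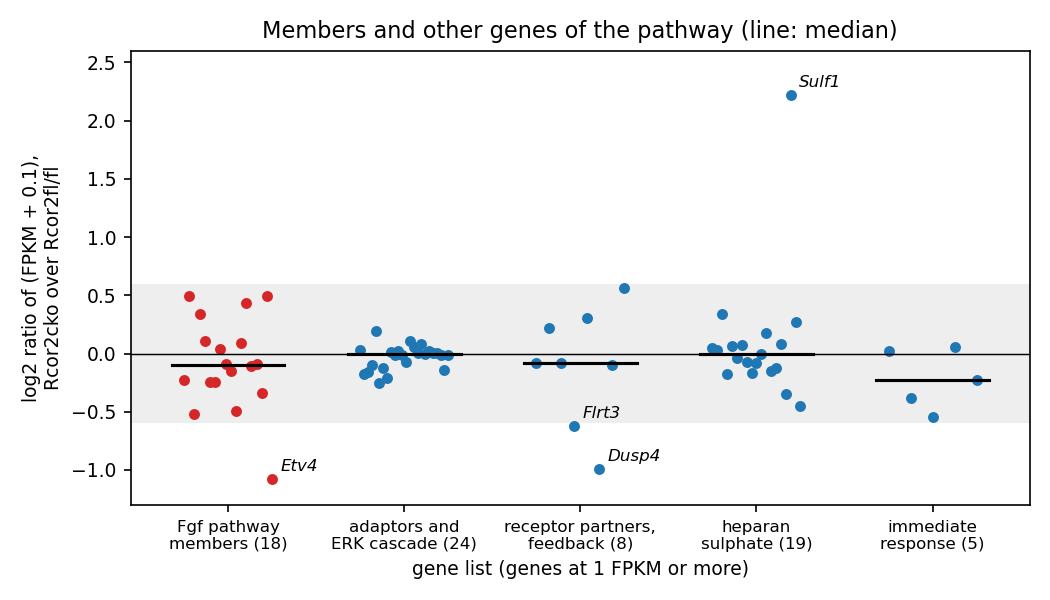
Change in log2(FPKM + 0.1) from Rcor2fl/fl to Rcor2cko of each gene at 1 FPKM or more in the members and in 4 other lists of the pathway (points), with the list's median (lines) and a grey band of 1.5-fold. The 24 adaptor and ERK cascade genes lie between -0.25 and 0.20, and Etv4, Flrt3, Dusp4 and Sulf1 are outside the band.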

How the data were processed

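RNA of the cortical VZ–SVZ at E13.5 was sequenced, with 1 library from Rcor2fl/fl and 1 from Rcor2cko embryos. RNA was isolated with RNeasy columns and libraries were made with a stranded mRNA kit. Reads were mapped to mm9 with TopHat. The submitters' processing notes give TopHat 1.3.3 and Cufflinks 1.2.0, and the methods of the study another TopHat release. The authors deposited FPKM values with 95% bounds, per RefSeq transcript for Rcor2fl/fl (27641 rows) and per gene for Rcor2cko (21896 rows).

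Transcript rows were summed per gene, and the squared half-widths of their intervals were added before taking the root. Genes at 1 FPKM or more in at least 1 library were compared on log2(FPKM + 0.1), and counted as different above 1.5-fold. No test of genotypes was possible. The files give no counts, but low FPKM values fall on whole-fragment steps: of values up to 100 fragments, 99.3% (Rcor2fl/fl) and 99.4% (Rcor2cko) came within 0.1 of a whole number. Recovery was limited to single-transcript genes of 1000 nt or longer, 14350 in all, among them 26 members, 11 of which were compared. These steps were also run on simulated fragment counts, scaled as fitted here, which cannot show whether the real values follow such counts. Positions are from GENCODE vM1 on NCBIM37 (mm9), where 36 of 37 members were found by symbol, and RefSeq windows were found for 27. Shared exon bases were counted over all GENCODE transcripts of a gene, not over the measured RefSeq transcripts.

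Every member is accounted for, and those at 1 FPKM or more in a library are named with both values. From the other pathway lists, the genes past 1.5-fold and up to 4 others of highest mean FPKM are named. Hras was not found in the files. Some genes that this rule names are not reported here. Members and lists were chosen with earlier results of these data known. Python 3.11.15, numpy 2.4.6, pandas 2.3.3, scipy 1.17.1 and matplotlib 3.10.9 were used.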

Additional observations from a re-analysis of the deposited data

How the results depend on the processing

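The values were recomputed under 9 other settings, and under 1 more, the exact interval leaving out 0, which was chosen after seeing the data. The count of members more than 1.5-fold lower was 1 (Etv4) throughout, except 0 when at least 5 FPKM in a library was required, a filter that Etv4 does not pass. The count higher was 0, except 3 without a filter (Fgf7, Fgf15 and Fgf22, all under 1 FPKM) and 2 (Fgf12 and Fgf14) with the highest row per gene. That last setting lowers the Rcor2fl/fl library alone, since its rows are transcripts; it also turned the members' median log2 change, -0.10 as reported, to 0.0028 and reversed Fgfr1, to 0.51, and Fgfr3, to 0.25. The members' median was -0.19 among members reaching 5 FPKM in a library. Among the 9 members at 5 FPKM or more in both libraries it was -0.24, with 7 of 9 below 0, against -0.04 over all 8299 such genes, of which 61.2% were below 0. The log2 change of Etv4 lay between -1.18 (pseudocount 0.01) and -0.60 (pseudocount 1). Of the 18 members, 14 kept their sign and side of 1.5-fold under every alternative run on them.

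Over all genes, 446 were higher and 207 lower as reported. The counts were 243 and 100 with a pseudocount of 1, 139 and 69 among genes reaching 5 FPKM, 1287 and 672 with every gene kept, 220 and 81 with 95% FPKM intervals apart, and 162 and 62 above 2-fold. Taking the highest row per gene left 1214 higher. Median and upper-quartile scaling shifted all genes by 0.02 and 0.04 (log2). No paired analysis was possible because each genotype was sequenced once. Of the 15 secreted ligands, 14 were under 1 FPKM in both libraries, which limits what their values can show.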

Other observations

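The Rcor2fl/fl values, unlike those of Rcor2cko, are split by RefSeq transcript, so that the make-up of the receptors can be given for that library alone. Of the 28.8 FPKM of Fgfr1, NM_010206 gave 59.0% (17.0 FPKM, 95% FPKM interval 14.2 to 19.8), NM_001079908 41.0% (11.8 FPKM, 9.47 to 14.2), and NM_001079909 was listed at 0. Of Fgfr2, NM_010207 gave 76.6% (9.10 FPKM, 7.62 to 10.6) and NM_201601 23.4% (2.78 FPKM, 1.89 to 3.66). Of Fgfr3, NM_008010 gave 71.0% (20.0 FPKM, 17.0 to 23.0) and NM_001163216 21.7% (6.11 FPKM, 4.34 to 7.87), and the other 2 transcripts gave 5.79% and 1.51%. Etv1 came from NM_007960 alone, with NM_001163154 listed at 0. Fgf14 came to 75.4% from NM_207667, and Fgf12 to 55.7% from NM_183064 and 44.3% from NM_010199, whose intervals overlapped. Transcripts of 1 gene share most of their sequence, and these splits are estimates by the authors' software from 1 library.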
